A study of Mus musculus with 12 samples.

Results

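The 8 genes described here encode subunits of Polycomb group and related chromatin complexes, and Yy1, the zinc finger protein most similar to Rex1. All gene probes on the array whose name or description gave Eed, Suz12, Jarid2 (older symbol Jmj), Aebp2, Phc1 (Edr1), Phc2 (Edr2), Mbd3 or Yy1 were taken, which gave 12 probes of 20280, for 8 of the 6633 genes named on the array. Of these, 5 probes covered the 4 PRC2 genes, 3 covered the 2 PRC1 genes, 1 covered Mbd3 and 3 covered Yy1. Suz12 was found through its older symbol D11Ertd530e. Probe A_65_P16356 was taken as a Yy1 probe from its description alone, since the files name it MGC25655 and put it in another gene cluster than the other Yy1 probes, so its gene is uncertain. Probe A_65_P05409, described only as polyhomeotic with no gene name, was not counted because it names no member of that family.

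RNA of mouse ES cells was measured in 4 lines, with 3 arrays per line and 12 in all. EB5 is the wild-type line. RKPG9 is Rex1+/-, with a pacEGFP puromycin resistance cassette in place of the start of the Rex1 reading frame on 1 allele. HP3 and HP4 are labelled Rex1-/-. Such lines were made from Rex1+/- cells either by selection of RKPG9 in high-dose puromycin or with another vector and hygromycin, and the sources used here do not say by which route HP3 and HP4 arose. Each mutant group is 1 line, and the cells were grown in LIF without feeder cells. Nothing in the sources used here ties the 3 arrays of each line to separate cultures. The p-values thus reflect only how far these arrays scatter, which may be technical.

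Each array carried the line in Cy3 and Universal Mouse Reference RNA, a pool of RNA from several cultured cell types, in Cy5. A level below is the log2 ratio of the line over that reference, and a change is the difference between the mean log2 ratios of 2 lines. The dyes were not swapped, so a level includes any dye effect, which is shared by the lines in a change. The spots of the EB5 arrays were read by the extraction software in session 1 with a global background adjustment, and those of the other 9 arrays in session 2 without it. Changes against EB5 therefore cannot be told apart from the session, whereas RKPG9, HP3 and HP4 were compared within session 2. In Cy3, the share of gene probes well above background was 92.24 to 94.45% for EB5 and 85.3 to 86.08% for HP4, with RKPG9 and HP3 between them. All 12 probes were well above background in both channels on every array and none was saturated. Arrays carry no read depth, and precision is limited by their number.

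Polycomb group proteins keep developmental genes silent. Polycomb repressive complex 2 (PRC2) methylates a lysine of histone H3 through Ezh2 or Ezh1, which needs Eed and Suz12 to be active. Polycomb repressive complex 1 (PRC1) ubiquitinates histone H2A, compacts chromatin and in its canonical form holds a polyhomeotic protein such as Phc1 or Phc2. In ES cells the complexes sit at promoters of lineage regulators that are silent until differentiation. Yy1 is a DNA-binding relative of the fly protein Pho, which brings Polycomb complexes to their targets, and Rex1 shares its zinc fingers. Comparing Rex1-deficient and wild-type lines asks whether transcripts of these complexes depend on Rex1.

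Zfp42, the gene that encodes Rex1, was measured by 2 probes. At probe A_65_P04537 its level was 5.96, 5.98 and 5.99 on the EB5 arrays, 6.05, 6.00 and 6.02 on those of RKPG9, 6.12, 5.94 and 5.91 for HP3 and 5.66, 5.42 and 5.24 for HP4. HP4 lay below all other arrays, and HP3 overlapped both EB5 and RKPG9. The change against EB5 was 0.01 ± 0.09 (SE, n = 3) in HP3 (limma adjusted p = 0.919) and -0.53 ± 0.09 in HP4 (limma adjusted p = 0.000489). The paper reports from northern blots that its Rex1-/- cells lost the wild-type transcript but made larger ones of truncated Rex1 joined to pacEGFP. Its western blot showed no Rex1 band in knockout cells. Where the 2 probes lie relative to the replaced part of the gene is not given in the sources used here, so their level is no test of the genotype or of the protein. All lines below are named by their labels.

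Promoter sequences are shown for Jarid2, which has a Yy1 motif, for Phc1, the member with the largest change in HP3, and for Yy1 itself. They are RefSeq windows on GRCm38.p6 from 250 bases before to 50 bases after an annotated start, written 5′ to 3′ on the strand of the gene, and capitals mark GCCATNTT, the Yy1 core motif, which was searched on both strands.
Jarid2, chr13:44730524-44730823, plus strand: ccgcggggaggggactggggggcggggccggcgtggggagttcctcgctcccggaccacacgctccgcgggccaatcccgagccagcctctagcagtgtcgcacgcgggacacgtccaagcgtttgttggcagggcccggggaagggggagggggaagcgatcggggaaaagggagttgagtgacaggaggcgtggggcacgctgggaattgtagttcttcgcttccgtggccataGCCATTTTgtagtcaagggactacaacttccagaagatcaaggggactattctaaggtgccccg
Phc1, chr6:122340178-122340477, minus strand: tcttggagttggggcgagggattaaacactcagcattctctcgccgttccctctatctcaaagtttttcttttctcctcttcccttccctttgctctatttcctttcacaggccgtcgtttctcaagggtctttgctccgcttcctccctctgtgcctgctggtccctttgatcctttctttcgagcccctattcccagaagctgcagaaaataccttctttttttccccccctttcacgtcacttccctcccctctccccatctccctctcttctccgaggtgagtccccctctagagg
Yy1, chr12:108793047-108793346, plus strand: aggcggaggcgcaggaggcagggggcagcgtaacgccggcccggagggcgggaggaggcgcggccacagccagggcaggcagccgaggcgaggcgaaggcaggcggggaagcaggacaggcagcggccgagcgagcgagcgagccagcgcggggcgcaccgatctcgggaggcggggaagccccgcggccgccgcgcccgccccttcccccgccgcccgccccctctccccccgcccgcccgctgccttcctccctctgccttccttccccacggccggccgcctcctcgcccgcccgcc
The RefSeq table held 13 promoter windows of the 8 genes, and 1 of them, that of Jarid2, contained GCCATNTT. That is 7.69% of the windows of these genes against 6.05% of all 32851 windows, so the share was near that of all promoters. The GC content of the 13 windows ran from 48 to 81% with a median of 62.7%, against a median of 52.7% in all windows. A match is a description of the letters and not evidence of binding.

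In none of the 6 comparisons did a probe of the 8 genes change by over 2-fold and pass the test at an adjusted p of 0.05. Over all probes 0.217% did so in HP3, 0.291% in HP4 and 0.524% in RKPG9 against EB5, 0.281% and 0.38% in HP3 and HP4 against RKPG9, and 0.0247% between the knockout lines. The changes that passed the adjusted p alone were mostly small, the largest being a 1.71-fold lower level of Aebp2 in RKPG9 than in EB5 and a 1.51-fold higher level of Phc1 in HP3 than in EB5. Phc1 was higher in both knockout lines than in RKPG9 at both of its probes, although the values of its bright probe in HP4 turned negative with median centring of the arrays and its dim probe lost both calls without background subtraction and with the Cy3 channel alone. Aebp2 was lower in RKPG9 than in all other lines, and Jarid2 and Eed were lower in HP4 than in RKPG9 and HP3. The brightest Yy1 probe did not pass in any comparison with the processing used here. In RNA from whole cultures, fewer cells that make a transcript and less of it per cell cannot be told apart.

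**Figure D1:**
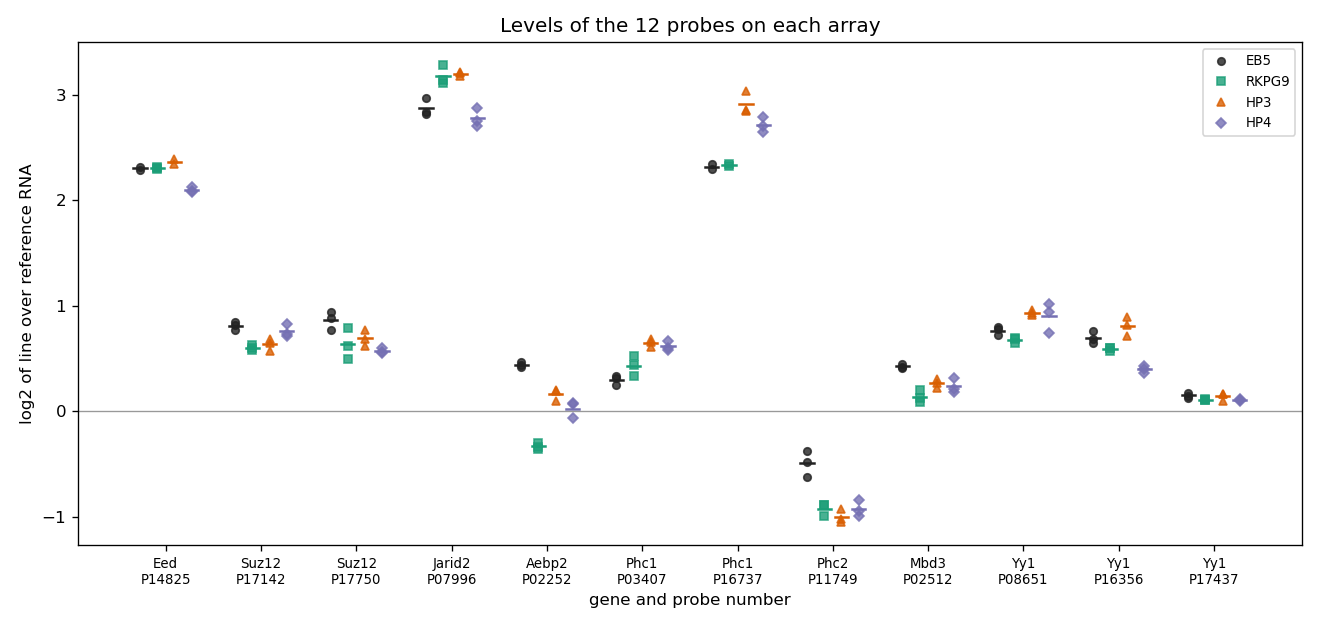
Level of each of the 12 probes on each array, as the log2 ratio of the line over the reference RNA (y axis), for EB5, RKPG9, HP3 and HP4 (x axis, gene and probe number). Points are arrays and short lines are means. Phc1 (P16737) lies higher on all HP3 and HP4 arrays, from 2.65 to 3.04, than on the EB5 and RKPG9 arrays, from 2.30 to 2.35.

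The count of probes that passed is read against the share of all probes that passed in the same comparison. In HP3 against EB5, 4 of the 12 probes passed as higher and 4 as lower, while 30.5% of all 20235 probes tested passed, 11.4% higher and 19.1% lower. In HP4 against EB5, 2 passed as higher and 6 as lower against 44.8% of all probes, 18.4% higher and 26.5% lower. In RKPG9 against EB5, 1 passed as higher and 5 as lower against 34.1%, 12.6% higher and 21.6% lower. These 3 comparisons share the EB5 arrays, so their values are given side by side and not as separate support.

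Within session 2, 5 of the 12 probes passed as higher and 0 as lower in HP3 against RKPG9, against 22.7% of all probes, 12.6% higher and 10.1% lower. In HP4 against RKPG9, 5 passed as higher and 3 as lower against 40% of all probes, 20.8% higher and 19.2% lower. In HP4 against HP3, 1 passed as higher and 5 as lower against 28.5%, 13.7% higher and 14.7% lower. The median change of the 12 probes was 0.09 in HP3 and 0.05 in HP4 against RKPG9, where the median over all probes was 0.00 and 0.01. The arrays of the 2 lines did not overlap at 9 of the 12 probes in each comparison against EB5, where this held for 46.2% of all probes in HP3, 53.5% in HP4 and 49.3% in RKPG9. Within session 2 they did not overlap at 7 probes in HP3 and 8 in HP4 against RKPG9, beside 39.8% and 51.2% of all probes, and at 7 in HP4 against HP3, beside 42.9%. Since 3 of the 8 genes have more than 1 probe, the 12 probes are not independent.

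The split of these counts moved with the scaling, and so did the number of calls over all probes. With median centring of each array in place of loess, the counts of higher and lower probes against EB5 became 2 and 5 for HP3 and 1 and 9 for HP4. Of all 20280 gene probes, 7430 and 16096 passed in these comparisons under that setting. For HP4 the counts became 1 and 7 against RKPG9 and 0 and 9 against HP3, where 15550 and 14280 of all probes passed. With the Cy3 channel alone the counts were 0 and 4 in RKPG9 against EB5, 4 and 1 in HP4 against RKPG9, and 0 probes passed in HP4 against HP3. Over all probes 5311, 5316 and 1895 passed in these comparisons. Scanner-processed signals gave 3 and 4 in HP4 against EB5, where 11373 of all probes passed. Before normalization, the Cy3 signal of each of the 12 probes was lower on all 3 HP4 arrays than on every other array. The part of that gap in the HP4 values was not tested.

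**Figure D2:**
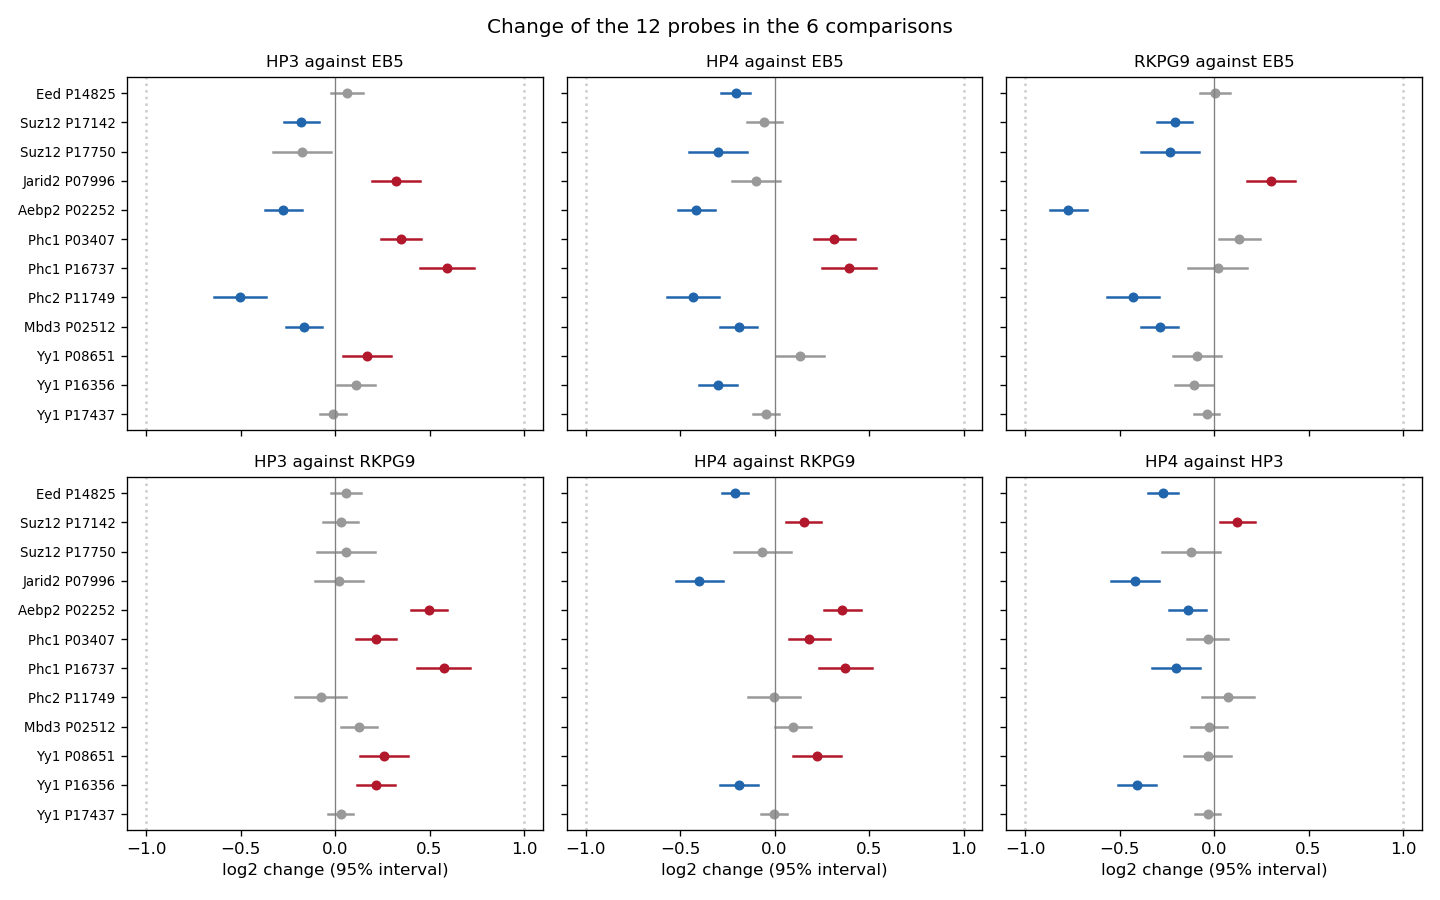
Change of each probe (log2, x axis) with its 95% interval in the 6 comparisons, 1 panel each. Red points passed an adjusted p under 0.05 as higher, blue as lower and grey did not pass, and dotted lines mark a 2-fold change, which no point reaches. The point farthest from 0 is Aebp2 in RKPG9 against EB5, at -0.77.

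Of the PRC2 core, Eed, which binds the methyl mark that the complex makes, was measured by 1 probe. Its level was 2.29 and 2.31 on 2 EB5 arrays, 2.32, 2.30 and 2.30 in RKPG9, 2.39 and 2.34 on 2 HP3 arrays, and 2.09, 2.08 and 2.12 in HP4. The spots of EB5 replicate 2 and HP3 replicate 1 were outliers within the spot and were left out of the fit. EB5 and RKPG9 could not be separated, and all HP4 arrays lay below all other arrays. The level was lower in HP4 than in EB5 by 1.15-fold, with a change of -0.21 ± 0.04 (SE; limma adjusted p = 0.00121), than in RKPG9 by 1.16-fold (-0.21 ± 0.03, limma adjusted p = 0.000556) and than in HP3 by 1.21-fold (-0.27 ± 0.04, limma adjusted p = 0.000642), the last of which did not pass from Cy3 alone (-0.17). HP3 differed from EB5 by 0.06, with a 95% interval from -0.02 to 0.15, and from RKPG9 by 0.06, from -0.02 to 0.14, neither of which passed.

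Suz12, the scaffold of PRC2, was measured by 2 probes that differed in HP4. At probe A_65_P17142 the EB5 arrays ran from 0.78 to 0.85, RKPG9 from 0.58 to 0.63, HP3 from 0.57 to 0.69 and HP4 from 0.71 to 0.83. At probe A_65_P17750 they ran from 0.77 to 0.95, from 0.49 to 0.79, from 0.62 to 0.78 and from 0.55 to 0.60. RKPG9 was lower than EB5 at both probes, with a change of -0.21 ± 0.04 (limma adjusted p = 0.00223) and -0.23 ± 0.07 (limma adjusted p = 0.0228), but the second call was lost without EB5 replicate 1 or 2 or RKPG9 replicate 1 or 2 and under 6 other settings, among them no background subtraction (-0.08) and the Cy3 channel alone (-0.06). From Cy3 alone the first did not pass either, at -0.25. HP3 was lower than EB5, with a change of -0.18 ± 0.04 at A_65_P17142 (limma adjusted p = 0.00752) that did not pass from Cy3 alone (-0.07), while A_65_P17750 stood at -0.17 and did not pass. HP4 was lower than EB5 at A_65_P17750 alone, with a change of -0.30 ± 0.07 (limma adjusted p = 0.00508), with -0.06 at the other probe, and with the Cy3 channel alone the value was 0.11. Against RKPG9, HP4 was higher at A_65_P17142 by 0.15 ± 0.04 (limma adjusted p = 0.0121), which turned to -0.29 with median centring and was 0.03 and did not pass without background subtraction, and the other probe stood at -0.06, with an interval from -0.22 to 0.09. HP4 against HP3 was 0.12 ± 0.04 at A_65_P17142 (limma adjusted p = 0.0467), a call that was lost when any array but HP3 replicate 2 or HP4 replicate 3 was left out and under 6 other settings, and the value turned to -0.25 with median centring. Within session 2 the probes thus gave no shared direction for Suz12 in HP4.

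Jarid2, a DNA-binding partner that helps PRC2 find its targets in ES cells, gave 2.84, 2.82 and 2.97 on the EB5 arrays, 3.14, 3.11 and 3.28 on those of RKPG9, 3.21, 3.22 and 3.18 for HP3 and 2.71, 2.88 and 2.75 for HP4. RKPG9 and HP3 lay above EB5 and HP4 on every array and overlapped each other, while HP4 overlapped EB5. RKPG9 was 1.23-fold above EB5, with a change of 0.30 ± 0.06 (limma adjusted p = 0.00165), and HP3 1.25-fold above it, with 0.32 ± 0.06 (limma adjusted p = 0.0014). HP4 was 1.32-fold below RKPG9 (-0.40 ± 0.06, limma adjusted p = 0.000209) and 1.34-fold below HP3 (-0.42 ± 0.06, limma adjusted p = 0.000433). The 2 knockout lines therefore differed in Jarid2 although they share the genotype. In the Cy3 channel by itself these 4 changes kept their direction and none passed, being 0.13 and 0.11 against EB5 and -0.22 and -0.20 in HP4 against RKPG9 and HP3. The change in HP3 against EB5 was also lost without background subtraction (0.20) and with median centring (0.21), settings under which HP4 passed as lower than EB5, at -0.39 and -0.57.

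Aebp2, a zinc finger cofactor that stimulates PRC2, had the change farthest from 0 of the 12 probes. Its level was 0.44, 0.46 and 0.42 on the EB5 arrays, -0.34, -0.30 and -0.36 on those of RKPG9, 0.10, 0.20 and 0.21 for HP3 and -0.06, 0.07 and 0.08 for HP4. The order from high to low was EB5, HP3, HP4 and RKPG9, and the arrays of no 2 lines overlapped. RKPG9 was 1.71-fold below EB5 (-0.77 ± 0.04, limma adjusted p = 1.55e-07). HP3 and HP4 were below EB5, with a change of -0.27 ± 0.04 and -0.41 ± 0.04 (limma adjusted p = 0.000722 and 2.75e-05), and from Cy3 alone neither passed (-0.15 and -0.19). Against RKPG9 they were higher, HP3 1.41-fold (0.50 ± 0.04, limma adjusted p = 6.8e-06) and HP4 1.28-fold (0.36 ± 0.04, limma adjusted p = 6.3e-05), though HP4 stood at 0.08 and did not pass with median centring. HP4 was below HP3, with a change of -0.14 ± 0.04 (limma adjusted p = 0.0356), and this lost the call without HP3 replicate 2, HP3 replicate 3 or HP4 replicate 1 and under 4 other settings, among them no background subtraction (-0.06) and the Cy3 channel alone (-0.04). The heterozygous line was thus farther from wild-type than either knockout line.

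Of the PRC1 pair, Phc1, the polyhomeotic subunit, was measured by a bright and a dim probe. At the bright probe A_65_P16737 the level was 2.34 and 2.30 on 2 EB5 arrays, 2.35 and 2.33 on 2 RKPG9 arrays, 2.85, 3.04 and 2.85 in HP3, and 2.79, 2.70 and 2.65 in HP4. EB5 replicate 2 and RKPG9 replicate 1 were left out as outlier spots. The knockout arrays lay above all EB5 and RKPG9 arrays, and HP3 above HP4. HP3 was 1.51-fold above EB5 (0.59 ± 0.06, limma adjusted p = 0.000108) and 1.49-fold above RKPG9 (0.57 ± 0.06, limma adjusted p = 0.000116). HP4 was 1.31-fold above EB5 (0.39 ± 0.06, limma adjusted p = 0.000848) and 1.30-fold above RKPG9 (0.37 ± 0.06, limma adjusted p = 0.00114), but with median centring both HP4 values changed sign, to -0.32 and -0.25, and from Cy3 alone the value against EB5 was 0.21 and did not pass. RKPG9 differed from EB5 by 0.02, with an interval from -0.14 to 0.18, and from Cy3 alone it stood at -0.32 and passed.

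At the dim Phc1 probe A_65_P03407 the arrays ran from 0.25 to 0.33 in EB5, from 0.34 to 0.53 in RKPG9, from 0.61 to 0.69 in HP3 and from 0.58 to 0.67 in HP4. It moved in the same direction at a smaller size, by 0.35 ± 0.05 in HP3 and 0.31 ± 0.05 in HP4 against EB5 (limma adjusted p = 0.000289 and 0.000391) and by 0.22 ± 0.05 and 0.18 ± 0.05 against RKPG9 (limma adjusted p = 0.00708 and 0.0115). From Cy3 alone none of these 4 changes passed, being -0.04 and 0.03 against EB5 and 0.10 and 0.17 against RKPG9. Without background subtraction HP4 stood at 0.03 against EB5, and HP3 and HP4 at 0.05 and 0.0083 against RKPG9, and none of the 3 passed. HP3 against RKPG9, at 0.24, did not pass with median centring either. HP4 was below HP3 at the bright probe, with a change of -0.20 ± 0.06 (limma adjusted p = 0.0268), and stood at -0.03 at the dim one, with an interval from -0.14 to 0.07. The call at the bright probe was lost without HP3 replicate 2, HP4 replicate 2 or HP4 replicate 3 and under 5 other settings, among them a normexp offset of 0 (-0.17), processed signals (-0.19) and the Cy3 channel alone (-0.12). The Cy3 signal of the dim probe was between 481.8 and 602.9 scanner units, against local backgrounds of 391 to 401, and the added offset of 50 in the background correction shrinks the changes of such probes.

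Phc2, the paralogue of Phc1, was the only one of the 12 probes with a level below the reference in every line. It gave -0.48, -0.38 and -0.62 on the EB5 arrays, -0.89, -0.89 and -0.99 on those of RKPG9, -0.93, -1.02 and -1.05 for HP3 and -0.99, -0.84 and -0.95 for HP4. All 9 arrays of the mutant lines lay below the EB5 arrays, and the 3 mutant lines overlapped one another. The change against EB5 was -0.50 ± 0.06 in HP3, -0.43 ± 0.06 in HP4 and -0.43 ± 0.06 in RKPG9 (limma adjusted p = 0.000117, 0.000233 and 0.00024), and the value in HP4 was -0.06 and did not pass without background subtraction. Because these are the comparisons that cross the extraction sessions, the session and the lines cannot be told apart for Phc2. Among the 3 lines of session 2 its changes lay between -0.08 and 0.07 and none passed, although HP4 passed at 0.11 against both RKPG9 and HP3 without background subtraction and as lower than RKPG9 with processed signals (-0.33) and median centring (-0.22). Phc1 and Phc2 thus differed in where their change fell, with Phc1 separating the knockout lines from RKPG9 and Phc2 separating EB5 from the rest, within the limits given for each.

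**Figure D3:**
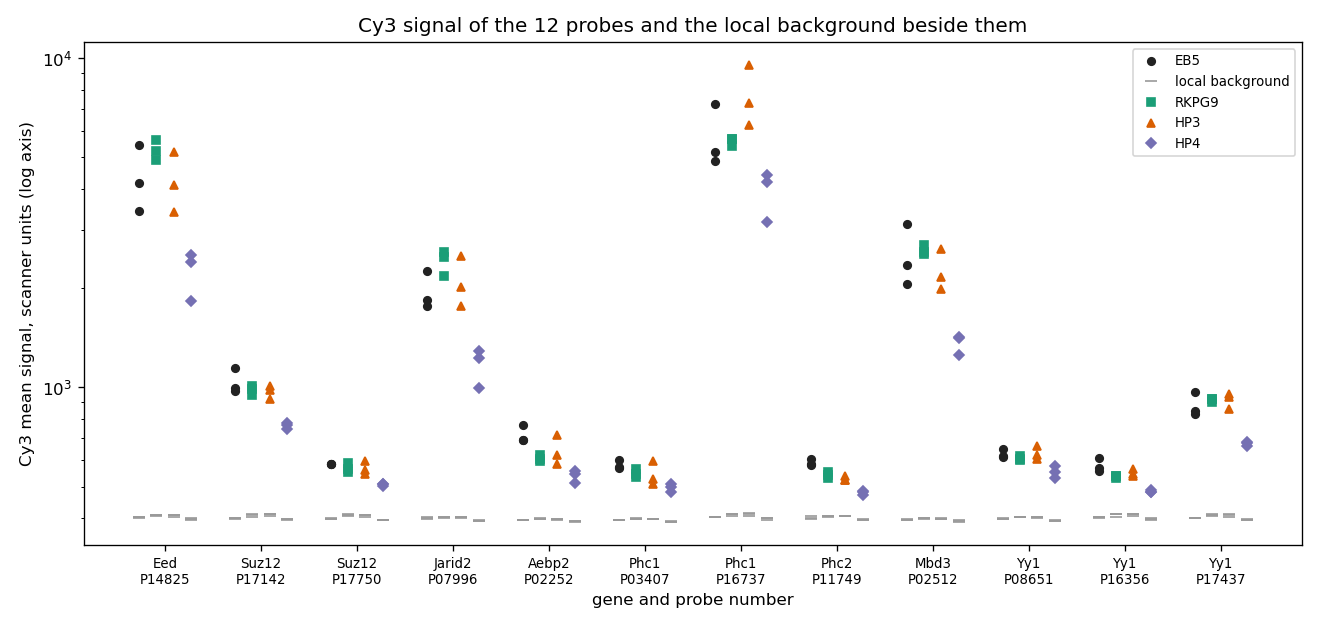
Cy3 mean signal of each probe on each array in scanner units (y axis, log axis), with the median local background as grey dashes, by gene and probe number (x axis). Eed, Jarid2, Mbd3 and the Phc1 probe P16737 stand far above background, the other 8 probes nearer to it, and the HP4 arrays are lowest at every probe.

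Mbd3, a subunit of the NuRD remodelling and deacetylase complex that ES cells need to leave self-renewal, was the only NuRD gene chosen. The EB5 arrays lay from 0.42 to 0.45, RKPG9 from 0.09 to 0.20, HP3 from 0.22 to 0.30 and HP4 from 0.18 to 0.32. All mutant arrays lay below EB5, and HP4 overlapped both HP3 and RKPG9. The change against EB5 was -0.16 ± 0.04 in HP3, -0.19 ± 0.04 in HP4 and -0.29 ± 0.04 in RKPG9 (limma adjusted p = 0.0151, 0.00428 and 0.000306), and again the session cannot be told apart from the lines. The call in HP3 was lost without EB5 replicate 3 or HP3 replicate 2 and with a normexp offset of 0 (-0.14), and that in RKPG9 from Cy3 alone (-0.19). Against RKPG9 the change was 0.13 in HP3 and 0.10 in HP4, and neither passed (limma adjusted p = 0.061 and 0.0965). The value in HP3 passed without RKPG9 replicate 1 or HP4 replicate 1, with the replicate block and without background subtraction (0.10), and the value in HP4 was -0.52 and passed with median centring.

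Yy1 was measured by 3 probes that did not move together. The brightest, A_65_P17437, gave 0.13, 0.18 and 0.15 on the EB5 arrays, 0.10, 0.12 and 0.11 on those of RKPG9, 0.09, 0.17 and 0.16 for HP3 and 0.10, 0.12 and 0.11 for HP4. No comparison passed, and the 95% intervals of all 6 changes lay between -0.11 and 0.10. This depended on the processing, since HP4 against HP3 was -0.05 and passed without background subtraction, and with median centring HP4 stood at -0.53 against EB5, -0.44 against RKPG9 and -0.40 against HP3, and all 3 passed.

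The second probe named Yy1, A_65_P08651, ran from 0.72 to 0.80 in EB5, from 0.65 to 0.70 in RKPG9, from 0.91 to 0.96 in HP3 and from 0.75 to 1.02 in HP4. It was higher than RKPG9 by 0.26 ± 0.06 in HP3 and 0.23 ± 0.06 in HP4 (limma adjusted p = 0.0059 and 0.00834), and higher than EB5 by 0.17 ± 0.06 in HP3 (limma adjusted p = 0.0427). The last call was fragile, as leaving out any array other than HP4 replicate 1 or 3 ended it, as did median centring or no background subtraction (0.05 in each) and a fit without moderation. HP4 against EB5, at 0.14, did not pass, but it passed without HP4 replicate 1 (0.21), with a normexp offset of 0 (0.26), with processed signals or the authors' table (0.28) and with the Cy3 channel alone (0.39). HP4 against RKPG9 lost its call without background subtraction (0.03) and with median centring (0.02). Its Cy3 signal lay between 529.1 and 664.4.

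The uncertain probe A_65_P16356 gave 0.76, 0.65 and 0.68 on the EB5 arrays, 0.60, 0.57 and 0.60 on those of RKPG9, 0.72, 0.89 and 0.82 for HP3 and 0.43, 0.37 and 0.40 for HP4. HP4 lay below all other arrays, and HP3 lay above RKPG9 and HP4 but overlapped EB5. HP4 was below HP3, with a change of -0.41 ± 0.05 (limma adjusted p = 0.000132), below EB5, with -0.30 ± 0.05 (limma adjusted p = 0.000354) and below RKPG9, with a change of -0.19 ± 0.05 (limma adjusted p = 0.00614), while HP3 was above RKPG9 by 0.22 ± 0.05 (limma adjusted p = 0.00435). The change in HP4 against RKPG9 was 0.03 with the Cy3 channel alone, where the value against HP3 did not pass either (-0.21). With processed signals (-0.13) and with median centring (-0.0037) HP4 did not pass against EB5, nor against RKPG9 with median centring (-0.0023) or a normexp offset of 0 (-0.13), and with median centring HP3 against RKPG9 stood at 0.14 and did not pass. The change in HP3 against EB5, at 0.11, did not pass, but it passed without HP3 replicate 1 (0.16), with a normexp offset of 0 (0.27) and with processed signals or the authors' table (0.37). With 3 probes that differ in size and direction, the array gives no single change for Yy1.

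The remaining subunits of the complexes were counted at the brightest probe of each gene. With the processing used here, no change of theirs that passed was more than 2-fold. Over all named genes 11.2% passed as higher and 32% as lower in HP3 against EB5, and 18% and 16% in HP3 against RKPG9. Of the other PRC2 subunits, 5 of 9 could be tested in HP3 against EB5, where 0 passed as higher and 2 as lower, with a median change of -0.03 against -0.06 over all named genes. The 2 were Rbbp7, a histone-binding subunit, at -0.24, and Phf1, a Polycomb-like protein, at -0.23. Ezh2, the catalytic subunit, had mean levels of 0.84, 0.80, 0.81 and 0.74 for EB5, RKPG9, HP3 and HP4. Mtf2, a Polycomb-like subunit, had mean levels of 3.12, 2.76, 3.16 and 2.83 in the same order, and its change was 0.39 ± 0.06 in HP3 against RKPG9 (limma adjusted p = 0.000411) and -0.33 ± 0.06 in HP4 against HP3 (limma adjusted p = 0.00196).

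In HP4, 1 of the 5 other PRC2 subunits passed as higher and 4 as lower against EB5, where 16.8% and 38.2% of all named genes did. Against RKPG9, 2 of 6 passed as higher and 1 as lower, beside 26.7% and 24.7% of all named genes. The higher ones were Rbbp4, a histone-binding subunit, at 0.28, and Ezh1, the catalytic paralogue of Ezh2, at 0.18, and both turned negative with median centring. Against HP3 the counts were 2 and 1, beside 18% and 18.8%, and in HP3 against RKPG9 they were 1 and 0 of 6. In RKPG9 against EB5 0 passed as higher and 3 as lower, beside 14.3% and 35%. With median centring 0 of the 6 passed as higher and 5 as lower in HP4 against both RKPG9 and HP3. Under that setting 15550 and 14280 of all 20280 gene probes passed in these comparisons. The direction of this list in HP4 rested on the scaling, but that dependence was not particular to the list.

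Other PRC1 subunits were measured at 16 of 21. In HP3 against EB5, 3 passed as higher and 4 as lower, beside 11.2% and 32% of all named genes. The counts were 3 and 4 in HP4 against EB5, beside 16.8% and 38.2%, and 2 and 7 in RKPG9 against EB5, beside 14.3% and 35%. Bcor, a subunit of a variant PRC1, was above EB5 by 0.69 ± 0.06 in RKPG9, 0.42 ± 0.06 in HP3 and 0.46 ± 0.06 in HP4 (limma adjusted p = 2.47e-06, 0.000174 and 6.7e-05). Against RKPG9 the counts were 4 higher and 3 lower in HP3, beside 18% and 16% of all named genes. In HP4 they were 6 higher and 4 lower, beside 26.7% and 24.7%. Bmi1, a RING finger subunit, was 0.28 ± 0.03 above RKPG9 in HP3 (limma adjusted p = 4.24e-05). In HP4 against HP3, 4 subunits passed each way, beside 18% higher and 18.8% lower of all named genes. With median centring the counts in HP4 were 4 higher and 9 lower against RKPG9, where 15550 of all 20280 gene probes passed. Rybp, which binds both Ring1 and Yy1, was lower in HP4 than in EB5, RKPG9 and HP3, with a change of -0.37, -0.27 and -0.18.

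Other NuRD subunits were measured at 8 of 11. In HP3 against EB5, 0 passed as higher and 3 as lower, beside 11.2% and 32% of all named genes. The counts were 1 and 5 in HP4 against EB5, beside 16.8% and 38.2%, and 1 and 5 in RKPG9 against EB5, beside 14.3% and 35%. Hdac1, a deacetylase that NuRD shares with other complexes, was below EB5, with a change of -0.38 ± 0.06 in HP3 and -0.43 ± 0.06 in HP4 (limma adjusted p = 0.000446 and 0.000145). Its mean levels were 1.74, 1.49, 1.36 and 1.32 in EB5, RKPG9, HP3 and HP4, so RKPG9 lay below EB5 as well. The session cannot be told apart from the lines here either. Against RKPG9, 2 passed as higher and 1 as lower for HP3, beside 18% and 16%, and 2 each way for HP4, beside 26.7% and 24.7%. HP4 against HP3 also gave 2 each way, beside 18% and 18.8%. Cdk2ap1, a small NuRD subunit, was 0.64 ± 0.03 above RKPG9 in HP4 (limma adjusted p = 7.33e-08), but -0.04 with median centring, under which 0 of the 8 passed as higher and 7 as lower against RKPG9. Under that setting 15550 of all 20280 gene probes passed in HP4 against RKPG9.

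The relatives and partners of Yy1 include Zfp42 itself. Of 9 tested in HP3 against EB5, 2 passed as higher and 3 as lower, beside 11.2% and 32% of all named genes. The counts were 2 and 6 in HP4 against EB5, beside 16.8% and 38.2%, and 3 and 3 in RKPG9 against EB5, beside 14.3% and 35%. Within session 2, 2 passed as higher and 1 as lower of 10 in HP3 against RKPG9, beside 18% and 16%. The counts were 1 and 4 in HP4 against RKPG9, beside 26.7% and 24.7%, and 0 and 5 in HP4 against HP3, beside 18% and 18.8%. Zfp42, the targeted gene, is among those that passed as lower in HP4 against EB5, RKPG9 and HP3, at -0.53, -0.58 and -0.55. Mbtd1, an MBT domain protein, was 0.45 ± 0.03 above EB5 and 0.30 ± 0.03 above RKPG9 in HP3 (limma adjusted p = 3.45e-06 and 5.98e-05). Uchl5, a deubiquitinase found in the INO80 remodelling complex that Yy1 joins, was below EB5, with a change of -0.28 ± 0.03 in HP3, -0.54 ± 0.03 in HP4 and -0.21 ± 0.03 in RKPG9 (limma adjusted p = 3.3e-05, 2.17e-07 and 0.000217). In HP4 it was also below RKPG9, with a change of -0.34 and below HP3, with a change of -0.26.

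Of the complex that removes the PRC1 mark from histone H2A, 4 of 7 genes were measured, and at most 2 passed in either direction in any comparison. Over the comparisons 11.2% to 26.7% of all named genes passed as higher and 16% to 38.2% as lower. Asxl2, a cofactor of the deubiquitinase Bap1, was above EB5 by 0.37 ± 0.05 in HP3 and 0.46 ± 0.05 in HP4 (limma adjusted p = 0.000212 and 3.02e-05), and above RKPG9 by 0.19 ± 0.05 in HP3 (limma adjusted p = 0.0152).

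Regulators of development that Polycomb complexes cover in ES cells were tested at 27 of 42 genes. Of these, 2 passed as higher and 8 as lower in HP3 against EB5, beside 11.2% and 32% of all named genes, 5 and 7 in HP4, beside 16.8% and 38.2%, and 4 and 7 in RKPG9, beside 14.3% and 35%. Within session 2, 4 passed as higher and 3 as lower in HP3 against RKPG9, beside 18% and 16%, 9 and 5 in HP4 against RKPG9, beside 26.7% and 24.7%, and 5 and 2 in HP4 against HP3, beside 18% and 18.8%. The median change of the list lay between -0.05 and 0.06 in the 6 comparisons. With the processing used here, no gene of the list changed by more than 2-fold with an adjusted p under 0.05 in any of them. With median centring the counts in HP4 were 14 and 8 against RKPG9 and 15 and 8 against HP3, where 15550 and 14280 of all 20280 gene probes passed. Otx2, a regulator of epiblast and anterior neural fate, was 0.94 ± 0.08 above EB5 and 0.70 ± 0.08 above RKPG9 in HP3 (limma adjusted p = 9.34e-06 and 6.76e-05). The paper, with its own processing, lists Otx2 among the genes up by more than 2-fold in HP3 against EB5. Foxa2, a regulator of endoderm, had a mean level of 0.56 in RKPG9 and was not well above background on any array of the other 3 lines, so no change is given for it. Lhx1 was not well above background on any array. The same held for Gata4 on RKPG9, HP3 and HP4 arrays, Eomes on HP3 and HP4 arrays and Hand1 on HP4 arrays. All these genes are in the counts above, where a call of theirs may rest on background.

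Markers of other cell types moved with some of these results. All 10 pluripotency markers measured were well above background on every array, and their mean level ran from 2.62 to 2.82 on EB5 arrays, 2.92 to 2.95 on RKPG9, 2.89 to 3.04 on HP3 and 2.48 to 2.68 on HP4. In HP4, 7 of the 10 were lower and 0 higher than in HP3, beside 18.8% and 18% of all named genes, with a median change of -0.50, beside the lower Eed and Jarid2. Zfp42, the targeted gene, is 1 of these 7. With the Cy3 channel alone 4 were lower and 0 higher, and 1895 of all 20280 gene probes passed in this comparison. The 5 trophoblast markers had a mean level from -0.39 to -0.34 on EB5 arrays, from -1.15 to -1.09 on RKPG9 and from -1.30 to -1.15 on HP3, with HP4 slightly above RKPG9, beside the EB5 differences of Phc2, Aebp2 and Mbd3. In each mutant line 3 of the 5 passed as lower than EB5 and 0 as higher. Of all named genes 32%, 38.2% and 35% passed as lower in HP3, HP4 and RKPG9, and 11.2%, 16.8% and 14.3% as higher. The median change of the 5 was -0.23 in HP3, -0.33 in HP4 and -0.24 in RKPG9. The fall of the mean lay mostly in the keratins Krt18, with mean levels of -0.56, -3.08, -3.16 and -2.66 in EB5, RKPG9, HP3 and HP4, and Krt7, with -0.38, -1.58, -1.64 and -1.40 in the same order. Eomes lay between -0.17 and -0.06 and Hand1 between -0.08 and 0.04 in all 4 lines. The 5 fibroblast markers ran from -3.40 to -2.92 on EB5, -3.64 to -3.57 on RKPG9, -3.86 to -3.32 on HP3 and -3.24 to -3.10 on HP4. The 8 extraembryonic endoderm markers ran from -0.41 to -0.22 over all arrays. These ranges are array means over the spots left in, so they shift where a marker was left out. Pou5f1 and Fn1 were usable on 1 EB5 array, Esrrb and Col1a2 on 2 EB5 arrays, and Fn1 and Cdx2 on 2 HP3 arrays. Of the fibroblast markers, 0 passed as higher than EB5 in any mutant line. As lower, 4 passed in HP3, 4 in RKPG9 and 2 in HP4, beside 32%, 35% and 38.2% of all named genes. Eomes was not well above background on any HP3 or HP4 array. At its brightest probe, the same held for Hand1 on the HP4 arrays and for Gata4 on those of RKPG9, HP3 and HP4. The part of these markers in the changes of the 8 genes was not tested.

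The genes whose levels ran most like those of the members were found by Pearson correlation over the 12 arrays, or over 10 where spots were left out, among 5973 or 5974 named genes. The arrays are replicates of only 4 lines, so these values describe which genes follow the same order of lines. Jarid2 was most like Qtrt2 (r = 0.979), Bcas2 (r = 0.95) and Zfp57 (r = 0.947). Aebp2 was most like Tmem191c (r = 0.99), Ppp5c (r = 0.987) and Klhl21 (r = 0.986). Phc1 was most like Runx1t1 (r = 0.986), Pitpnc1 (r = 0.969) and Cnot6 (r = 0.966), and Phc2 was most like Mcfd2, Efnb1 and Wbp1 (r = 0.967, 0.966 and 0.961).
Eed was most like Dst, Cnot9 and Lrr1 (r = 0.975, 0.973 and 0.972), Suz12 like Prnp, Hoxa10 and Ak4 (r = 0.936, 0.936 and 0.935) and Mbd3 like Bax, Eif3g and Casp6 (r = 0.972, 0.968 and 0.961). Yy1 had the weakest matches, Nxt1, Npl and Notch1 (r = 0.838, 0.835 and 0.82), and its brightest probe varied least over the arrays of the 8 genes' brightest probes, with an SD of 0.029.

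**Figure D4:**
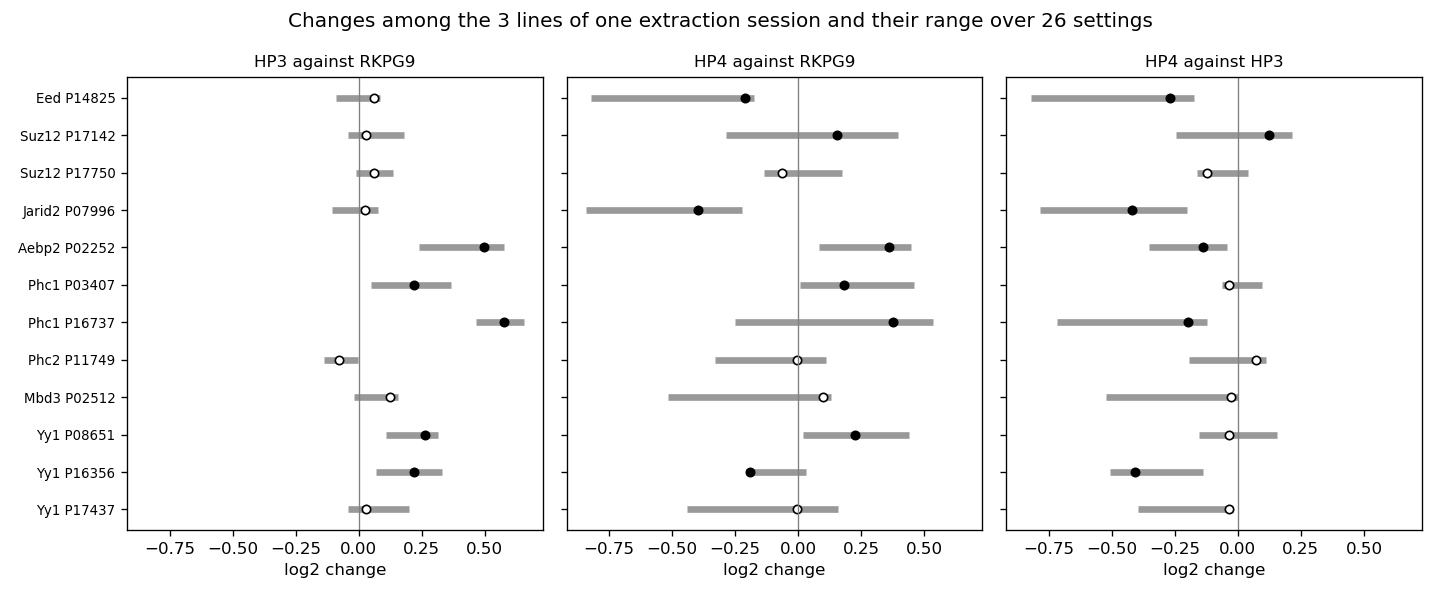
Change of each probe (log2, x axis) among the 3 lines of session 2, 1 panel per comparison, with a grey bar from the lowest to the highest value over the 26 settings and left-out arrays tried. Filled points passed an adjusted p under 0.05. In HP3 against RKPG9 the bars of Aebp2, both Phc1 probes and the Yy1 probes P08651 and P16356 stay above 0, while in HP4 against RKPG9 the bar of the Phc1 probe P16737 runs from -0.25 to 0.53.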

How the data were processed

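RNA of 4 mouse ES cell lines was hybridised in Cy3 against Universal Mouse Reference RNA in Cy5 on 12 Agilent 2-colour arrays of 20280 gene probes. The deposited scanner files, made by the authors with Agilent Feature Extraction 7.5.1, hold mean, background and processed intensities and a log10 ratio per spot. The authors' table of processed values, also on a log10 scale, equals minus that log10 ratio plus a constant for each probe, within 0.01, for 93.82 to 95.9% of probes per array. Its column medians ran from 2.868 to 2.88, and what its constants stand for is not given in the sources used here.

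Here, mean intensities were corrected with normexp (offset 50) against the median local background, and log ratios were normalized by loess within arrays with limma 3.58.1 in R 4.3.3. Control and outlier spots had weight 0 in the loess, and 1824 outlier spots of gene probes were left out. A linear model with the line as the only factor was fitted to all 12 arrays (lmFit and eBayes, 8 residual degrees of freedom, 3.41 prior). P-values were two-sided and adjusted by Benjamini-Hochberg over all gene probes in a comparison, and a probe passed at an adjusted p under 0.05. A change of more than 2-fold was counted as well. Levels of 8550 probes were assigned to 6633 gene symbols through RefSeq (GRCm38.p6). All probes of the 8 genes were named, together with Zfp42, up to 4 genes per list and comparison with the largest change that passed, and the 3 genes most alike in level. An item withheld from the text is not reported here. The genes and lists were chosen with earlier results of these data known. Tested on simulated arrays of HP3 and EB5 with 20235 probes, the comparison of these lines gave the following calls: 19, 41, 47 and 50 of 50 probes each at changes of 0.2, 0.4, 0.8 and 1.5, and 8 of 20035 unchanged ones. The simulated arrays had independent noise, few changed probes and no session effect. In the data 30.5% of probes passed in HP3 against EB5, across 2 sessions, so these rates do not carry over. Alternatives covered background correction, scaling, Cy3 alone, spot flags, the authors' table, the arrays in the fit, moderation, a replicate block and each array left out. Promoters were read from RefSeq with Python 3.11.15, and plots drawn with matplotlib 3.10.9.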

Additional observations from a re-analysis of the deposited data

Results flagged for a closer look

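HP3 and HP4 are both labelled Rex1-/-, and their changes against RKPG9 or EB5 differed at 6 of the 12 probes in limma's direct test of HP4 against HP3 (Benjamini-Hochberg adjusted p under 0.05), where 28.5% of all probes did. HP4 was lower than HP3, at -0.42 for Jarid2, -0.41 for the uncertain Yy1 probe A_65_P16356, -0.27 for Eed, -0.20 for Phc1 at A_65_P16737 and -0.14 for Aebp2, and higher by 0.12 for Suz12 at A_65_P17142. With the Cy3 channel alone 0 of the 12 passed, and with median centring 9 passed, all lower. Of all 20280 gene probes 1895 passed with Cy3 alone and 14280 with median centring. Groups of 3 arrays are too small for an outlier test of single arrays.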

How the results depend on the processing

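No probe of the 8 genes passed with a change of more than 2-fold under any alternative. Of 900 values from 72 changes under alternatives that kept all arrays of the lines compared, 804 kept their direction and side of the threshold, 27 came to pass, 59 no longer passed and 10 changed sign (a sign change between values that did not pass on either side counted as kept). With 1 array left out, 825 were kept, 7 came to pass and 32 no longer passed. Some of these values could not differ, such as the 72 from Aquantile. Fits of only 2 lines, without EB5 or without moderation, and leaving out an array of neither line compared, can move the p-value but not the change. The counts of values kept therefore overstate how far the results were tried. With the Cy3 channel alone, which has no reference to divide by, 4 rather than 8 probes passed in HP3 and 5 rather than 8 in HP4 against EB5, 5 rather than 8 in HP4 against RKPG9 and 0 rather than 6 in HP4 against HP3. Median centring left 3 of 5 in HP3 against RKPG9, and a fit of only HP3 and HP4 left 3 of 6 between them. The cause of these differences was not tested.

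Signs turned with median centring for Phc1 at A_65_P16737 in HP4 against EB5 (-0.32) and RKPG9 (-0.25), for Suz12 at A_65_P17142 in HP4 against RKPG9 (-0.29) and HP3 (-0.25), and for Mbd3 in HP4 against RKPG9 (-0.52). From Cy3 alone they turned for Phc1 at A_65_P03407 in HP3 against EB5 (-0.042) and at A_65_P16737 in RKPG9 against EB5 (-0.32), for Suz12 at A_65_P17750 in HP4 against EB5 (0.11) and for Yy1 at A_65_P16356 in HP4 against RKPG9 (0.031). Without background subtraction Phc2 in HP4 against RKPG9 was 0.11. Aquantile leaves ratios as they are and changed nothing.

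Over all probes, median centring called 16096 rather than 9069 in HP4 against EB5, 15550 rather than 8113 in HP4 against RKPG9, 14280 rather than 5768 in HP4 against HP3 and 3066 rather than 4602 in HP3 against RKPG9. The Cy3 channel alone called 5401 in HP3 and 9083 in HP4 against EB5. It called 2078 in HP3 and 5316 in HP4 against RKPG9 and 1895 in HP4 against HP3. A fit of only HP3 and HP4 called 4410 between them. With each array left out, the probes of the 8 genes that passed numbered 6 to 8 in HP3, 8 to 9 in HP4 and 5 to 6 in RKPG9 against EB5, 5 to 6 in HP3 and 8 in HP4 against RKPG9, and 4 to 5 in HP4 against HP3.

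The replicate numbers were not used to pair the arrays. Deviations of same-numbered arrays correlated at -0.18 to 0.20 over 18 pairs and those of other arrays at -0.26 to 0.19 over 36. Within session 2 the same-numbered pairs ran from -0.03 to 0.20 and the others from -0.20 to 0.13. Apart from RKPG9 1 with HP3 1, the same-numbered pairs of session 2 were all positive, while most of the others were negative. Same-numbered arrays thus leaned towards shared deviations, but the ranges overlap, so whether the numbers pair the arrays is not decided. With the number as a replicate block, 8, 8 and 6 probes passed in HP3, HP4 and RKPG9 against EB5, 6 and 8 in HP3 and HP4 against RKPG9 and 5 in HP4 against HP3. Mbd3 came to pass in HP3 against RKPG9 and Suz12 at A_65_P17142 no longer passed in HP4 against HP3. The precision of the dimmest probes, such as Phc2 with Cy3 signals of 472.9 to 605 units, is limited by signal over background.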
